A study of Mus musculus with 13 samples.

Results

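The clustered protocadherin genes were examined in mouse embryonic stem (ES) cells. Members were found by symbol: Pcdha, Pcdhb, Pcdhga, Pcdhgb or Pcdhgc followed by a digit, with Pcdhac1 and Pcdhac2. The pattern found 58 of the 49671 genes in a joint table of read counts from 4 single libraries, with 14 in the alpha, 22 in the beta and 22 in the gamma cluster. In the files of 6 replicate libraries it found 1 of 26797 genes, Pcdha1. The other 57 genes had no row in the replicate files used here, so almost all of what follows rests on libraries without replicates. The symbol Pcdha11 was paired with 2 identifiers, ENSMUSG00000007440 and ENSMUSG00000102206, and both were kept.

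WT cells were untreated cells of the AinV15 line, which holds a doxycycline-inducible locus. Dnmt1-/- cells were the D1-null strain, homozygous for the null C allele of the maintenance DNA methyltransferase gene, and are 1 line, other than AinV15. dCas9-OGA cells were AinV15 cells that expressed 4 sgRNAs to the promoter region of IAP retrotransposons and a fusion of inactive Cas9 to a bacterial enzyme that removes O-GlcNAc from proteins. dCas9-OGA D242A cells, the inactive control, expressed the same sgRNAs with a version of the enzyme that lacks activity, and both fusions were induced with 1 µg/mL doxycycline for 48 h. WT and Dnmt1-/- cells had 3 replicate libraries each, and the joint table held 1 column for each of WT, Dnmt1-/-, dCas9-OGA and dCas9-OGA D242A. The WT and Dnmt1-/- columns name a group and no replicate, so they are tied to no labelled sample, and each was taken to be 1 library of its group in every comparison below that uses it. Nothing in the labels says that the replicates were separate cultures, so their p-values measure only the spread between these libraries. The chromatin precipitation samples of the series were not analysed here.

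Clustered protocadherins are cadherin-type adhesion proteins of the cell surface, best known from neurons, where each cell uses its own combination and recognizes cells that carry the same one. Each variable exon of the alpha and gamma clusters has its own promoter and is spliced to constant exons that the whole cluster shares, whereas beta genes are single exons. Choice among these promoters is known to involve DNA methylation, the insulator protein CTCF with the cohesin ring, and the chromatin protein SMCHD1. The C-type genes at the end of the alpha and gamma clusters differ from the others in that many neurons express them together.

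The clusters lie in a row on chromosome 18 of the mm10 build, over 912 kb. The alpha cluster spans 36930184 to 37187661 (257 kb), the beta cluster 37264938 to 37524479 (260 kb) and the gamma cluster 37661793 to 37841873 (180 kb). Because the constant exons belong to every alpha or every gamma gene, a read on them names no single gene. The exon bases that belong to 1 gene only were a median of 2475 for alpha, 3714 for beta and 2587 for gamma genes, and where levels are compared between genes they are given per kilobase of these bases. A count of an alpha or gamma gene is thus mainly a count of its variable exon. Similar variable exons can also share reads: of the windows of 50 bases in each gene's own exon bases, between 0 and 528 also occurred in another of these genes, with 0 in Pcdhgc3, Pcdhgc4, Pcdhgc5, Pcdhga11 and Pcdhga12.

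Overlap between genes limits what the counts can show. Pcdhga10 had 0 counts in all 4 libraries, but 0 of its exon bases are free of other genes when strand is ignored, against 2613 on its own strand, so its 0 cannot be read as silence. Of 139 genes of the whole table with that arrangement, 128 (92.1%) were at 0 in all 4 libraries, against 34.5% of the 35362 genes with at least 500 free bases. The sources differ on whether the library kit kept strand, and reads from a member and an antisense partner cannot be told apart. Gene spans that overlap were also common among genes without a row in the replicate files: 844 of 867 such genes with at least 100 counts (97.3%) overlapped another gene, against 49.5% of 13058 genes with a row. Without a minimum of counts the contrast was smaller, at 53.5% of 22647 genes without a row and 40.9% of 26679 with one. The span of each of the 58 genes overlaps another gene, since 3 annotated readthrough genes (Gm42416, Gm37013 and Gm37388) run from the alpha into the gamma cluster. Pcdha1, which has a row, is among them, and why rows are missing was not tested.

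Around the annotated starts the 58 genes were poorer in CpG than most promoters. In the 300 bases from 250 before to 50 after the start, they held a median of 6 CpG and 39.7% G+C, against 11 CpG and 55% in 21874 other protein-coding genes. At least 10 CpG stood in 9 of 58 windows (15.5%), against 53.5% of the others. The letters CGCT, searched on both strands, occurred in 56 of 58 windows (96.6%), against 67% of the others. They are the core of a motif known from these promoters, and a match is a description and not a binding site. The C-type genes Pcdhgc3 and Pcdhac1 had the most CpG of their clusters, with 22 and 17. No CpG and no CGCT stood in the windows of Pcdhb22 and Pcdhga12.

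**Figure D1:**
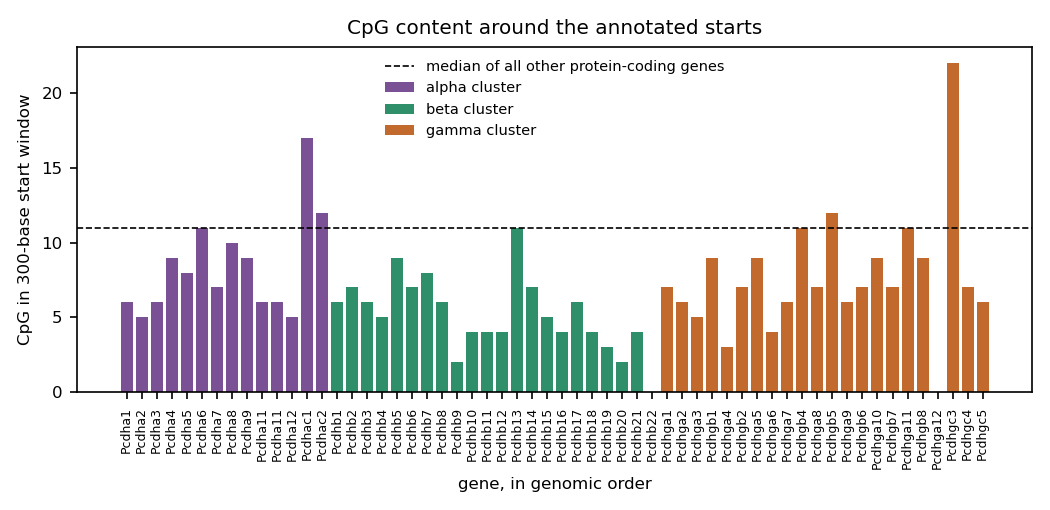
CpG count (vertical axis) in the 300-base window around the annotated start of each of the 58 genes, in genomic order, with the clusters in colour. The dashed line is the median of 21874 other protein-coding genes (11 CpG). Pcdhgc3 reaches 22, while Pcdhb22 and Pcdhga12 have none.

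Depth was similar in 3 of the single libraries, with 24828078 to 25097983 counts on genes, and lower in Dnmt1-/-, with 18693531. Values are cpm, counts scaled to a common library size with TMM factors, so that 1 count was worth 0.0526 cpm in Dnmt1-/- and 0.0402 to 0.0403 cpm elsewhere. The WT library stood apart from the rest: of 13925 genes with at least 100 counts over the 4 libraries, 17.4% were at least 2-fold from the median of the other 3 libraries, against 8.37% to 13.3% for the others. Its deviation rose with the G+C content of the transcript across genes (Spearman's rho = 0.41, as a description), and the 6 gamma genes in that set had transcripts of 51.7% to 55.4% G+C against a median of 50.2%. The median log2 deviation of these 6 genes was -0.087 in WT, 0.892 in dCas9-OGA, -0.18 in dCas9-OGA D242A and -0.925 in Dnmt1-/-. With transcript length, rho of the deviation was -0.14, 0.17, 0.10 and -0.12 in the same order. The part of G+C content and length in the comparisons was not tested. Markers of ES cells such as Pou5f1 and Sox2 were high in all 4 libraries (summed 3939 to 5750 cpm over 8 genes), and Dnmt1 itself stood at 61.9 cpm in the Dnmt1-/- library and at 376 to 548.5 cpm in the others.

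Alpha and beta genes were close to silent in these ES cells, and nearly all counts came from the gamma cluster. The 14 alpha genes together had 10 counts in WT, 14 in Dnmt1-/-, 7 in dCas9-OGA D242A and 7 in dCas9-OGA. The 22 beta genes together had 40, 19, 20 and 38 counts in the same order. The gamma cluster had 629, 280, 522 and 964 counts, or 92.6%, 89.5%, 95.1% and 95.5% of all counts on the 58 genes. Of the 58 genes, 8 had 0 counts in every library and 30 did not exceed 3 counts in any, of which 12 were alpha and 17 beta genes and 1 was Pcdhga10. A count of 0 allows up to 3 counts, or 0.121 to 0.158 cpm. Among the 8, Pcdha4, Pcdha11 (ENSMUSG00000102206) and Pcdhb12 had only 404, 1268 and 1107 exon bases free of other genes. Their 0 counts thus say less than those of genes with more free bases.

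The alpha C-type gene Pcdhac2 had the most counts of its cluster summed over the libraries, with 4 in WT, 10 in Dnmt1-/-, 5 in dCas9-OGA D242A and 0 in dCas9-OGA, where Pcdha12 had 4. Pcdhac1, the other alpha C-type gene, had 1 count in Dnmt1-/- and 0 in the other 3 libraries. Without Pcdhac2 the alpha sum was 2 to 7 counts per library, too few for any comparison. The beta sum was 1.90-fold higher in dCas9-OGA than in the inactive control, with a 95% interval from 0.11 to 1.79 on the log2 scale. Against WT the ratio was 0.949 for dCas9-OGA (log2 interval -0.76 to 0.60) and 0.499 for dCas9-OGA D242A (-1.86 to -0.20). Between Dnmt1-/- and WT the interval for the beta genes included 0, from -1.56 to 0.13. Pcdhb22 had the most counts of the beta genes summed over the libraries, with 4 in WT, 3 in Dnmt1-/-, 8 in dCas9-OGA D242A and 11 in dCas9-OGA, though Pcdhb14 had more in WT (8) and Pcdhb17 more in WT (7) and Dnmt1-/- (4). Intervals of ratios, given on the log2 scale, are exact 95% intervals that cover counting error only, because each condition had 1 library and replicate error is unknown.

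**Figure D2:**
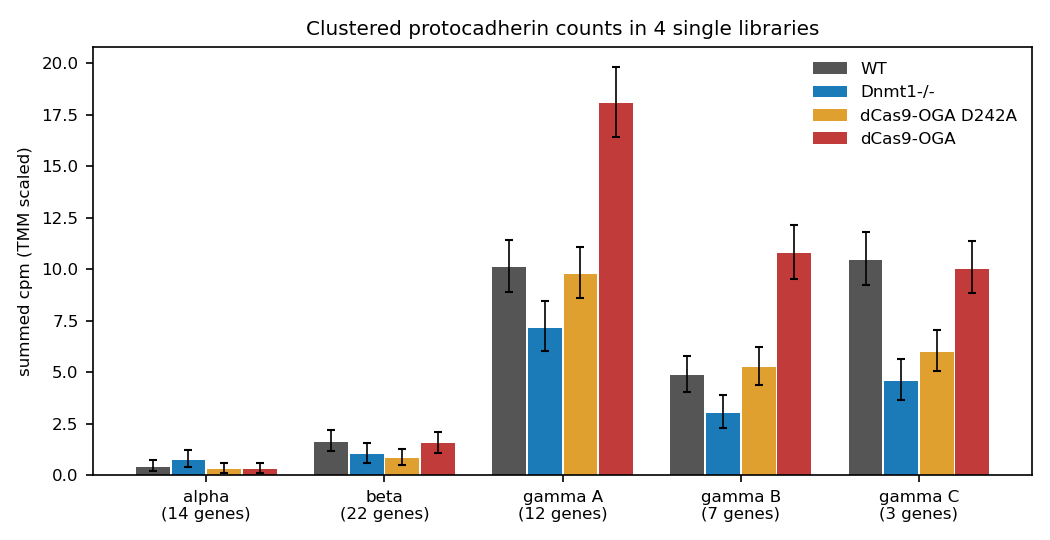
Summed cpm (vertical axis) of the alpha, beta, gamma A, gamma B and gamma C genes in the 4 single libraries. Bars are 1 library each, and whiskers are exact Poisson 95% intervals for counting error only. Gamma A and gamma B genes stand highest in dCas9-OGA (18.1 and 10.8 cpm), while gamma C genes stand alike in WT and dCas9-OGA (10.5 and 10.0 cpm).

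Gamma protocadherin RNA was higher in dCas9-OGA than in the inactive control. The cluster stood at 38.8 cpm in dCas9-OGA against 21 cpm in the control, a 1.85-fold difference (log2 interval 0.73 to 1.04). This level in dCas9-OGA was also above WT (25.4 cpm) and Dnmt1-/- (14.7 cpm). All 3 gamma subfamilies were higher in dCas9-OGA than in the inactive control: gamma A by 1.85-fold, gamma B by 2.06-fold and gamma C by 1.67-fold. Of the 16 gamma genes with at least 30 counts over both libraries, 15 were higher in dCas9-OGA, against 51.3% of all 14766 genes with as many counts. Their median log2 difference, on the log2(cpm + 0.5) scale, was 0.70 against 0.01 for those genes. Of the 448 other protein-coding genes of chromosome 18, 318 had at least 30 counts, of which 193 (60.7%) were higher in dCas9-OGA; their median was 0.12. Markers of ES cells moved with the gamma genes here: the sum over 8 markers was 5750 cpm in dCas9-OGA against 3939 in the inactive control, 6 of the 8 were higher (median log2 difference 0.59), and Nanog (388 against 186 cpm) and Dppa5a (1175 against 479.5 cpm) were at least 2-fold higher. Their part in the gamma difference was not tested.

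By the stricter rule of 2-fold on the log2(cpm + 0.5) scale and at least 100 counts over both libraries, 4 gamma genes could be judged and none was called higher or lower in dCas9-OGA than in the inactive control. Among all 12722 genes 4.88% were called higher and 7.22% lower. The 4 genes were Pcdhga11, Pcdhgb8, Pcdhga12 and Pcdhgc3, and their median log2 difference was 0.63. With at least 30 counts, 4 of 16 genes (Pcdhga1, Pcdhgb2, Pcdhga7 and Pcdhgb7) were called higher, against 5.03% of all 14766 genes. The largest single ratios therefore came from genes with few counts.

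Pcdhgc3, the gamma C-type gene with the highest level in every library, lies at 37806364 to 37841873. It had 213 counts in WT, 76 in Dnmt1-/-, 113 in dCas9-OGA D242A and 221 in dCas9-OGA. The dCas9-OGA and WT libraries thus lay close together and the other 2 were lower. Without a pseudocount dCas9-OGA was 1.96-fold above the inactive control, with a log2 interval from 0.64 to 1.31, and against WT the log2 ratio was 0.05, from -0.23 to 0.33. Pcdhgc3 made up 33.9% of gamma counts in WT (Wilson 95% interval 30.3% to 37.6%), 27.1% in Dnmt1-/- (22.3% to 32.6%), 21.6% in dCas9-OGA D242A (18.3% to 25.4%) and 22.9% in dCas9-OGA (20.4% to 25.7%). Its share in the 2 dCas9 libraries was therefore below that in WT, although its count in dCas9-OGA was not.

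The remaining C-type genes of the gamma cluster had fewer counts than Pcdhgc3 in every library. Pcdhgc5 had 39 counts in WT, 8 in Dnmt1-/-, 24 in dCas9-OGA D242A and 18 in dCas9-OGA. It was the only one of the 16 gamma genes that was lower in dCas9-OGA than in the inactive control, and its log2 ratio of -0.41 had an interval that included 0, from -1.38 to 0.53. WT had the most counts of this gene and Dnmt1-/- the fewest, with a log2 ratio of Dnmt1-/- to WT of -1.90 (-3.21 to -0.78). Pcdhgc4, which lies between them, had 7, 3, 12 and 10 counts in the order WT, Dnmt1-/-, dCas9-OGA D242A and dCas9-OGA, too few to order the libraries.

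The following gamma A and B genes were chosen after their values were seen. Pcdhga11 and Pcdhgb8, neighbours near the end of the variable exons, were raised in both dCas9 libraries relative to WT. Pcdhga11 had 32 counts in WT, 17 in Dnmt1-/-, 74 in dCas9-OGA D242A and 77 in dCas9-OGA. Its ratio between the dCas9 libraries was 1.04-fold, with a log2 interval from -0.42 to 0.54. Pcdhgb8 had 25, 25, 78 and 116 counts in the order WT, Dnmt1-/-, dCas9-OGA D242A and dCas9-OGA, and was 1.49-fold higher in dCas9-OGA than in the inactive control (log2 interval 0.15 to 1.01). Together they held 9.06% of gamma counts in WT, 15.0% in Dnmt1-/-, 29.1% in dCas9-OGA D242A and 20.0% in dCas9-OGA. Without these 2 genes the gamma cluster differed 2.09-fold between the dCas9 libraries, and stood at 23.1 cpm in WT and 14.9 cpm in dCas9-OGA D242A.

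Genes at the other end of the gamma cluster also differed between the dCas9 libraries. Pcdhga1, the first of the cluster, had 31 counts in WT, 27 in Dnmt1-/-, 20 in dCas9-OGA D242A and 64 in dCas9-OGA. It was 3.20-fold higher in dCas9-OGA than in the inactive control (log2 interval 0.94 to 2.48) and 2.06-fold higher than in WT (0.40 to 1.71). Its neighbour Pcdhga2 had 31, 9, 23 and 53 counts in the order WT, Dnmt1-/-, dCas9-OGA D242A and dCas9-OGA, a 2.31-fold difference between the dCas9 libraries. For both genes dCas9-OGA was the highest library.

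A different order was seen for Pcdhga7 and Pcdhgb2, which were low in dCas9-OGA D242A rather than high in dCas9-OGA. Pcdhga7 had 36 counts in WT, 12 in Dnmt1-/-, 5 in dCas9-OGA D242A and 27 in dCas9-OGA. Its 5.41-fold ratio between the dCas9 libraries (log2 interval 1.04 to 4.17) stood beside a ratio of 0.749 between dCas9-OGA and WT (log2 interval -1.19 to 0.34). Pcdhgb2 had 34, 9, 7 and 33 counts in the order WT, Dnmt1-/-, dCas9-OGA D242A and dCas9-OGA, with ratios of 4.72 against dCas9-OGA D242A and 0.969 against WT. Of its 2714 windows of 50 bases, 446 occur in another member, the most of any gamma gene, so its reads are less sure than those of Pcdhga7, which has 0.

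Pcdhga12, the last gene of the A type, had 63 counts in WT, 50 in Dnmt1-/-, 62 in dCas9-OGA D242A and 112 in dCas9-OGA. Here WT and dCas9-OGA D242A were alike (log2 ratio -0.03, from -0.56 to 0.50), and dCas9-OGA was 1.81-fold above the inactive control (log2 interval 0.39 to 1.33). The remaining gamma genes had between 0 and 34 counts in any library. Among them Pcdhgb7 had 34 counts in dCas9-OGA and 10 in the inactive control (3.41-fold), Pcdhgb5 32 and 12 (2.67-fold), and Pcdhgb1 14 and 2, while Pcdhga6 had 3 in each.

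**Figure D3:**
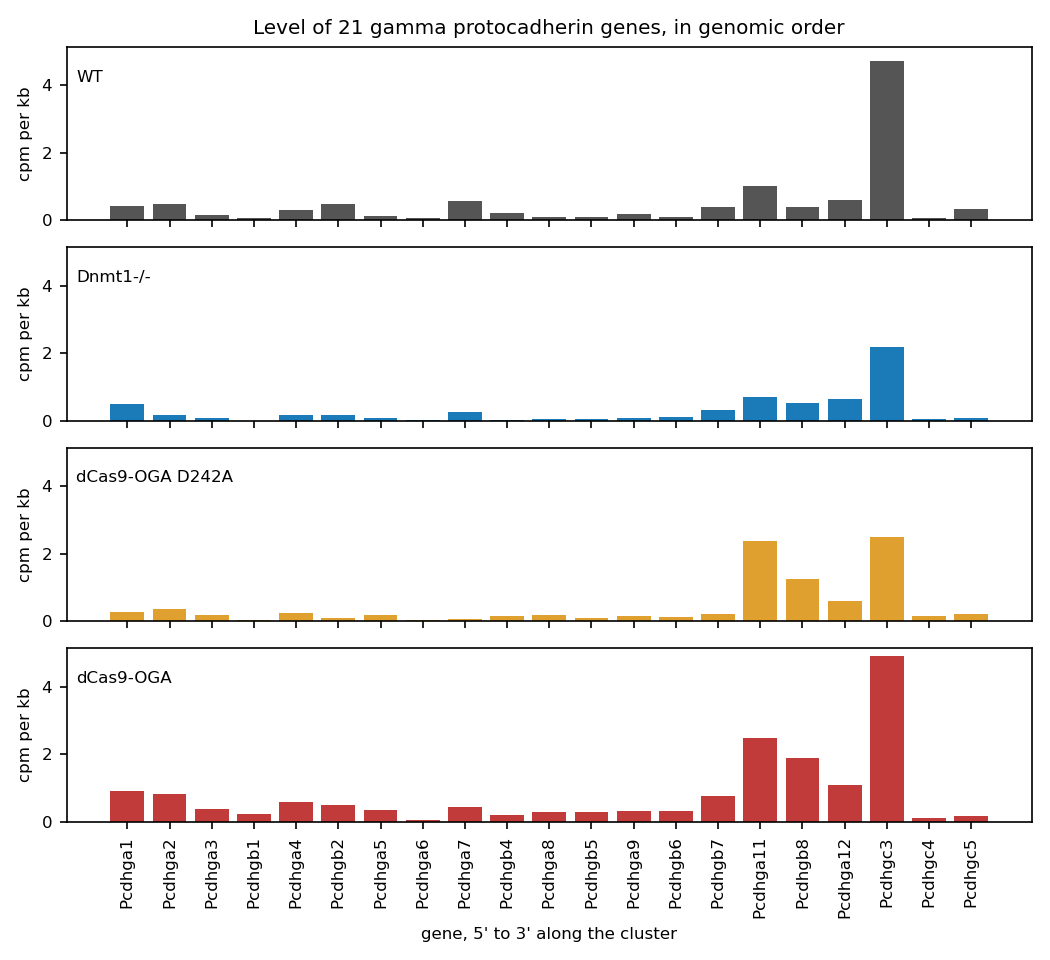
Level of 21 gamma genes in cpm per kilobase of exon bases of their own (vertical axis, the same in each panel), in genomic order, in the 4 single libraries. Pcdhga10, which has no such bases, is left out. Pcdhgc3 is the highest gene in each panel (2.20 to 4.89), and Pcdhga11 reaches 2.37 and 2.47 in the dCas9 libraries against 1.03 in WT.

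The order of levels along the gamma cluster was broadly shared. Per kilobase, Pcdhgc3 ranked first in every library, at 4.72 cpm per kb in WT, 2.20 in Dnmt1-/-, 2.50 in dCas9-OGA D242A and 4.89 in dCas9-OGA. Pcdhga11 followed in each, and the median gene stood at 0.308, 0.123, 0.174 and 0.387 cpm per kb in the same order. When only bases free on a gene's own strand set its length, Pcdhgc3 remained first, and Pcdhga11 came after Pcdhgb8 in both dCas9 libraries and after Pcdhga12 and Pcdhgb2 in WT. In Dnmt1-/- it was then not among the first 4 genes, which were Pcdhgc3, Pcdhga12, Pcdhgb8 and Pcdhga1. Over the 21 genes, Spearman's rho between libraries lay between 0.66 (WT and dCas9-OGA D242A) and 0.92 (Dnmt1-/- and dCas9-OGA). The points share gene lengths and mapping, so these are descriptions. CpG content of the start window did not follow the level: rho was between 0.02 and 0.11 in the 4 libraries.

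Against WT, the library that stood apart, dCas9-OGA had 1.53-fold more gamma counts (log2 interval 0.47 to 0.76), while dCas9-OGA D242A had fewer, at a ratio of 0.828 (log2 interval -0.44 to -0.10). For dCas9-OGA D242A the ratio depended on which genes were summed: its log2 value was -0.028 (-0.23 to 0.17) without Pcdhgc3, and -0.63 (-0.82 to -0.44) without Pcdhga11 and Pcdhgb8, the pair that was higher there than in WT. For gamma C genes the interval of the ratio of dCas9-OGA to WT included 0 (-0.32 to 0.20), whereas gamma A and gamma B genes were 1.79-fold and 2.22-fold higher. Of the 16 gamma genes with at least 30 counts, 12 were higher in dCas9-OGA than in WT, against 47.5% of all genes. For dCas9-OGA D242A, 2 of 11 were higher than in WT, against 50.3% of all genes, and these were Pcdhga11 and Pcdhgb8. By the 2-fold rule with at least 100 counts, 2 of 4 gamma genes were higher in dCas9-OGA than in WT (Pcdhga11 and Pcdhgb8, against 14.0% of all genes) and none was lower (9.78%). For dCas9-OGA D242A, 1 of 4 was higher (Pcdhgb8, against 12.5%) and none was lower (8.28%). With at least 30 counts 2 of 11, Pcdhgb2 and Pcdhga7, were called lower there, against 8.91% of all genes. These comparisons share the WT library, and those with dCas9-OGA D242A share that one.

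Lower gamma RNA was seen in the Dnmt1-/- library than in WT. The cluster stood at 14.7 cpm against 25.4 cpm, a ratio of 0.580 with a log2 interval from -0.99 to -0.58. The decrease was smallest for gamma A genes (ratio 0.709, log2 interval -0.81 to -0.19) and largest for gamma C genes (ratio 0.438, from -1.56 to -0.84). Of 9 gamma genes with at least 30 counts over both libraries, 3 were higher in Dnmt1-/- (Pcdhga1, Pcdhgb8 and Pcdhga12), against 44.9% of all genes. By the 2-fold rule 2 genes could be judged, Pcdhgc3 and Pcdhga12. Pcdhgc3 was lower, at a ratio of 0.465 without a pseudocount (log2 interval -1.5 to -0.72), against 6.89% of all genes lower and 10.5% higher. Under DESeq2 size factors or total gene counts Pcdhgc3 fell short of 2-fold. With at least 30 counts 2 of 9, Pcdhgc3 and Pcdhgc5, were lower, against 7.99% of all genes. Among markers with at least 100 counts, 1 of 8 of ES cells, 0 of 3 of fibroblasts and 2 of 6 neural ones were higher in Dnmt1-/-. Their median log2 differences were -0.24, -1.10 and -0.39, against -0.07 over all genes. The part of these cells in the gamma difference was not tested.

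**Figure D4:**
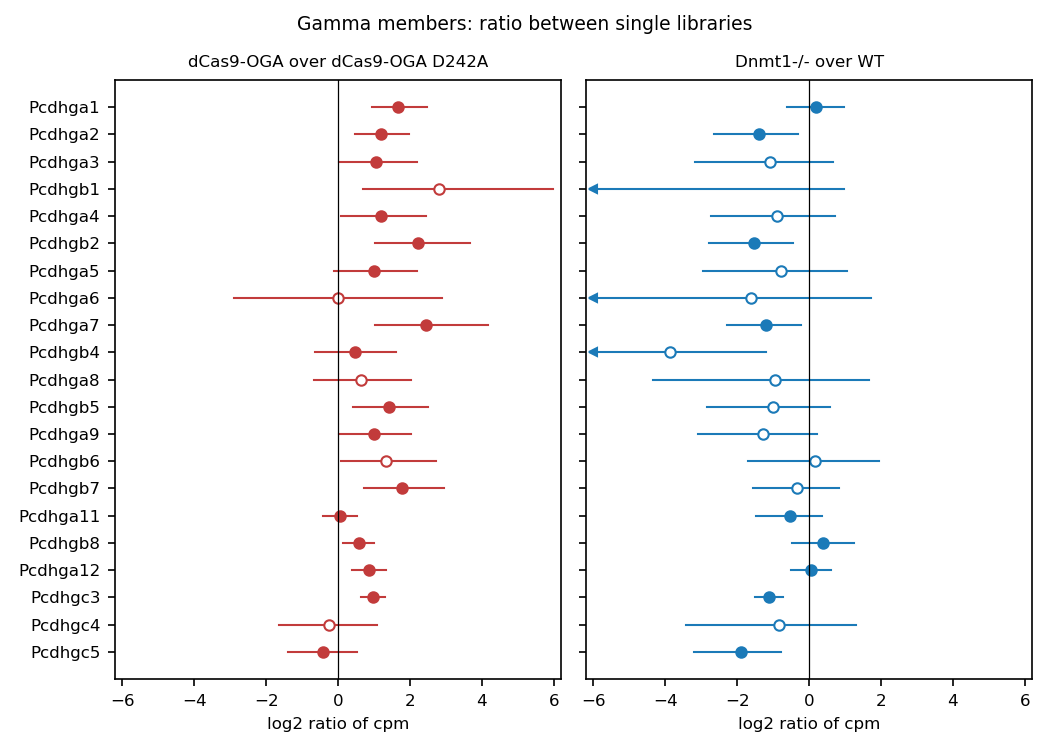
log2 ratio of cpm (horizontal axis) of 21 gamma genes between dCas9-OGA and dCas9-OGA D242A (left) and between Dnmt1-/- and WT (right). Points are ratios without a pseudocount, lines are exact 95% intervals for counting error only, open points have fewer than 30 counts over both libraries, and arrows mark intervals that run off the axis or a gene with 0 counts in Dnmt1-/-. On the left 15 of 16 filled points lie above 0, and on the right 6 of 9 lie below 0.

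The replicate libraries could show almost nothing of the clusters themselves. Pcdha1 had 3, 2 and 1 reads in the WT replicates and 2, 1 and 4 reads in the Dnmt1-/- replicates, recovered from the deposited signal, among 26846275 to 37112247 reads per library. These few reads overlap between the groups. Pcdha1 was not tested, since it did not pass the filter on low values that left 17297 genes, and no other member could be tested. Fitted without the filter its log2 fold change was 0.05 (limma, adjusted p = 0.66). Whether the lower gamma counts of the single Dnmt1-/- library recur in replicates was therefore not tested, and the planned sums over clusters could not be computed there.

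What the replicates could show is how the regulators and neighbours of the clusters stood in Dnmt1-/- cells. Signal values are counts divided by a scaled library size, and limma with Benjamini-Hochberg adjustment at 0.05 called 35.8% of 17297 genes higher and 35.4% lower. With so much of the genome called, counts in either direction for a short list are near the background unless they depart far from it. In bulk RNA, fewer cells of a type and less RNA per cell cannot be told apart.

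Of 23 regulators of clustered protocadherin promoters, 10 were higher, 8 lower and 5 not called, with a median log2 fold change of -0.02 against 0.01 over all genes. Dnmt1 checks the labels: its signal was 308, 352 and 347 in WT and 73.6, 75.4 and 77.6 in Dnmt1-/-, a log2 fold change of -2.14 (SE 0.05, adjusted p = 1.11e-20). The groups did not overlap. Dnmt3b, a de novo DNA methyltransferase that methylates these promoters in the embryo, had signals of 124, 125 and 133 in WT and 280, 263 and 284 in Dnmt1-/- (log2 fold change 1.11, SE 0.05, adjusted p = 1.09e-15). Its cofactor Dnmt3l, which has no catalytic activity, rose from 236, 252 and 253 to 762, 736 and 766 (log2 fold change 1.61, adjusted p = 8.42e-19). Both genes were higher in each Dnmt1-/- replicate than in any WT replicate. The single libraries did not show this rise: Dnmt3b stood at 415 cpm in Dnmt1-/- against 458 in WT, and Dnmt3l at 999 against 1241.

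Among the architectural and chromatin regulators, changes went in both directions. Of the cohesin genes, Rad21 was higher in Dnmt1-/- (log2 fold change 0.58, adjusted p = 2.03e-10), and Stag2 (-0.52, adjusted p = 2.11e-08) and Smc1a (-0.41, adjusted p = 4.34e-08) were lower. In the single libraries Stag2 and Smc1a stood the other way, at 61.5 and 97.7 cpm in Dnmt1-/- against 16.1 and 28.0 in WT. Ctcf had signals of 186, 181 and 206 in WT and 177, 172 and 182 in Dnmt1-/-, which overlap (log2 fold change -0.11, adjusted p = 0.065). The call depended on the fit: Ctcf was called lower by edgeR, with TMM, with replicate number as a block and without WT replicate 2. Smchd1, a repressor of the clusters, had signals of 19.1, 15.0 and 17.8 in WT and 23.1, 23 and 22.6 in Dnmt1-/- (log2 fold change 0.40, SE 0.08, adjusted p = 6.45e-05). Setdb1, a histone H3K9 methyltransferase, rose from 153, 155 and 162 to 212, 204 and 210 (log2 fold change 0.41, SE 0.05, adjusted p = 3.70e-08). For Smchd1 and Setdb1 the groups did not overlap, but in the single libraries Setdb1 was at 185 cpm in Dnmt1-/- against 233 in WT.

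In the single libraries some of these regulators set the WT library apart. By the 2-fold rule 8 of the 23 were called higher, and 3 lower, in dCas9-OGA than in WT, against 14.0% and 9.78% of all genes. In dCas9-OGA D242A 7 were called higher and 1 lower than in WT, against 12.5% and 8.28%. Of the 3 lower in dCas9-OGA, Dnmt3a and Dnmt3b set that library apart rather than WT. Dnmt3a had 62.4 cpm there against 245 to 333 in the others, and Dnmt3b 157 against 358 to 458. The cohesin subunit Smc3 had 37.4 cpm in WT against 182 to 240 cpm in the other 3 libraries, while its signal in the replicates was 272 to 305 in WT and 294 to 332 in Dnmt1-/-. Nipbl, which loads cohesin, had 10.4 cpm in WT against 92.5 to 153 cpm. By contrast Ctcf had 206 cpm in WT against 181 to 215 cpm, and the repressor gene Rest 368 against 327 to 379. Of the 23 regulators, 1 was called 2-fold higher in dCas9-OGA than in the inactive control and 2 were called lower, shares near those of all genes (4.88% and 7.22%). These were Tet2 (197 against 53.3 cpm), Dnmt3a (62.4 against 252 cpm) and Dnmt3b (157 against 358 cpm). Rad21, Stag2, Smc1a, Rest, Tet2, Dnmt3a, Smc3 and Nipbl were chosen after their values were seen. Their part in the gamma difference was not tested.

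**Figure D5:**
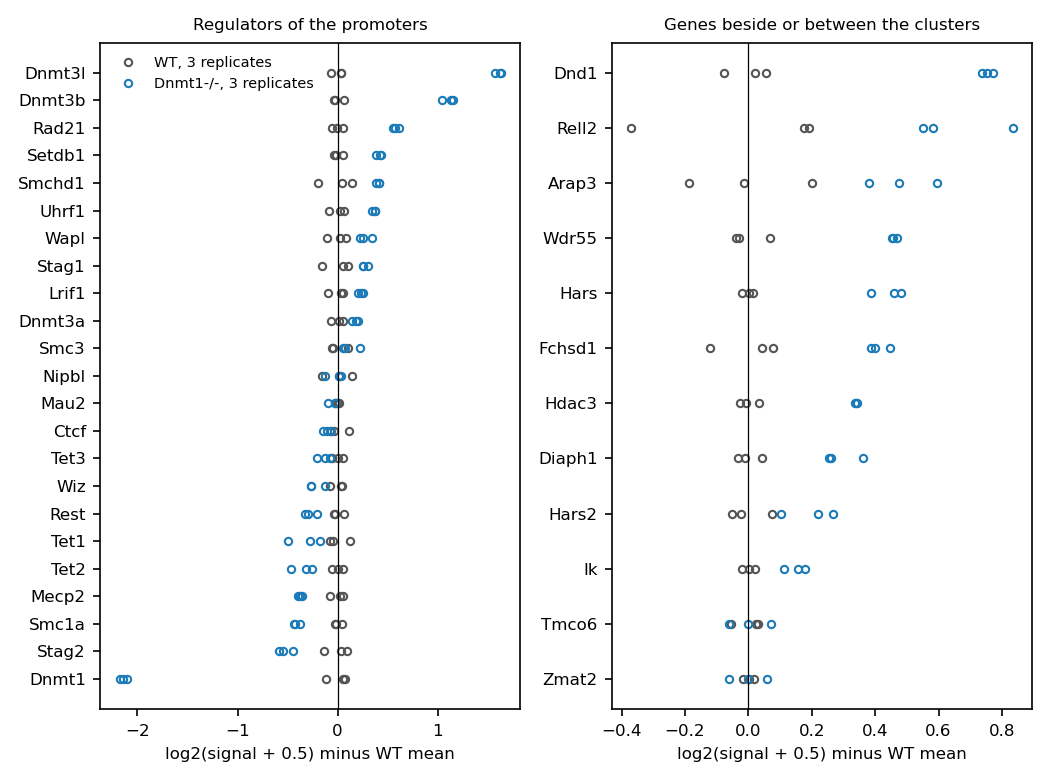
Signal of each replicate library, as log2(signal + 0.5) minus the WT mean (horizontal axis), for 23 regulators of the promoters (left) and 12 genes beside or between the clusters (right). Each circle is 1 library. Dnmt1 lies near -2.14 in Dnmt1-/-, and 10 of the 12 neighbouring genes were called higher in Dnmt1-/-.

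The genes beside or between the clusters leaned one way in Dnmt1-/- cells. Of 14 such genes 12 had a row in the replicate files, and 10 were called higher and 0 lower (limma), against 35.8% and 35.4% of all genes, with a median log2 fold change of 0.38 and a range from 0.00 to 0.75. The other 2, Slc25a2 and Taf7, lie between the clusters and had no row. Dnd1, which encodes an RNA-binding protein of the germline, had signals of 15.6, 16.0 and 14.5 in WT and 26.2, 26.5 and 25.9 in Dnmt1-/- (log2 fold change 0.75, SE 0.07, adjusted p = 5.62e-10). Rell2 rose from 0.557, 0.545 and 0.216 to 1.15, 0.855 and 0.884 (log2 fold change 0.66, adjusted p = 1.04e-03). At this low signal the value moved with the pseudocount, from 0.28 with 2 to 1.04 with 0.1, and was 1.07 by edgeR. Arap3 rose from 3.64, 3.06 and 2.66 to 4.18, 4.93 and 4.50 (log2 fold change 0.48, adjusted p = 1.11e-03). In the single libraries Arap3 was instead lower in Dnmt1-/- than in WT, at 10.7 against 17.4 cpm. In the single libraries the same list did not set the dCas9 libraries apart by 2-fold: of 12 genes with at least 100 counts, 0 were called higher in dCas9-OGA than in the inactive control and 1 was called lower (Arap3, 6.57 against 20.2 cpm), near the 4.88% and 7.22% of all genes, with a median of 0.20.

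Nonclustered protocadherins, which are not members of these clusters, could be judged for few genes in the dCas9 libraries. With at least 30 counts there were 3 of 12 (Pcdh1, Pcdh18 and Pcdh19), and all 3 were at least 2-fold lower in dCas9-OGA than in the inactive control, with a median of -1.05, against 8.76% of all genes. Pcdh18 had 4 and 37 counts and Pcdh19 had 19 and 51 in that order. The 12 nonclustered genes summed to 14.6 cpm in dCas9-OGA, 32.8 in dCas9-OGA D242A, 41.4 in WT and 20.4 in Dnmt1-/-. Among them only Pcdh1 had at least 100 counts over both dCas9 libraries, with 13.1 cpm in dCas9-OGA and 27.7 in the inactive control, and it made up most of each sum. It was called lower, as 7.22% of all genes were. In the replicates 8 of 10 tested were called lower in Dnmt1-/- (35.4% of all genes), 1 higher and 1 not called, with a median log2 fold change of -1.10. The 1 higher gene was Pcdh1, with signals of 5.86, 6.62 and 6.54 in WT and 9.12, 8.42 and 9.32 in Dnmt1-/- (log2 fold change 0.47, adjusted p = 1.15e-04), whereas in the single libraries it was lower in Dnmt1-/- than in WT (17.0 against 29.7 cpm). Pcdh18 had signals of 4.78, 5.64 and 3.56 in WT and 0.731, 0.723 and 0.700 in Dnmt1-/- (log2 fold change -2.06, SE 0.14, adjusted p = 4.33e-12), and the change was -1.28 with a pseudocount of 2 and -2.72 by edgeR. Pcdh7 fell from 26.5, 27.5 and 22.1 to 5.88, 5.33 and 5.86 (log2 fold change -2.06, adjusted p = 5.12e-16), and Pcdh19 from 12.2, 14.0 and 11.5 to 4.32, 5.29 and 4.57 (log2 fold change -1.32, adjusted p = 2.66e-11). In the single libraries Pcdh7 had 2 counts in Dnmt1-/- and 10 in WT (0.105 and 0.403 cpm), far below its replicate signals. Pcdh18 stood there at 0.158 against 1.94 cpm and Pcdh19 at 1.79 against 5.12 cpm.

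In the replicates, markers of other cells moved with these falls, while those of ES cells did not move one way. Of 8 ES cell genes 7 had a row, and 1 was called higher and 3 lower, against 35.8% and 35.4% of all genes. Their summed signals were 5353 to 5501 in WT and 5161 to 5558 in Dnmt1-/-. Of 8 fibroblast markers, 8 were called lower in Dnmt1-/-, against 35.4% of all genes, with a median log2 fold change of -2.55. Their summed signal was 926 to 1329 in WT and 214 to 238 in Dnmt1-/-. Of 10 markers of neural progenitors or neurons, 7 had a row (not Sox1, Neurod1 or Tubb3) and 4 could be tested. Of these 3 were lower and 0 higher, against 35.4% and 35.8% of all genes. The 7 genes summed to signals of 11.4 to 12.9 in WT and 7.89 to 8.51 in Dnmt1-/-. The neuronal gene Dcx was at 0 in 2 Dnmt1-/- replicates and at most 0.074 in any library. In the single libraries the ES cell markers summed to 3939 cpm in dCas9-OGA D242A, 5750 in dCas9-OGA, 4920 in WT and 3987 in Dnmt1-/-. In that order the fibroblast markers summed to 58.3, 36.8, 44.0 and 28.5 cpm. All 10 neural markers, a larger set than in the replicates, summed to 172, 59.4, 173 and 235 cpm. Most of the neural sum in 3 of these libraries was Tubb3, at 125 cpm in dCas9-OGA D242A, 23.2 in dCas9-OGA, 145 in WT and 208 in Dnmt1-/-. Sox1, a gene of neural progenitors, was instead highest in dCas9-OGA, at 13.4 cpm against 1.25 to 2.82 in the others. The part of these cells in any result was not tested.

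Partners of the proteins were called in either direction about as often as all genes. Among 14 genes for kinases, WAVE complex subunits and proteases that act on clustered protocadherins, 6 were higher, 5 lower and 3 not called in Dnmt1-/-, against 35.8% and 35.4% of all genes, with a median of 0.02. The kinase gene Ptk2b, which clustered protocadherins inhibit, fell from 44.5, 50.04 and 41.6 to 23.2, 21.4 and 23.2 (log2 fold change -0.99, adjusted p = 3.18e-12). The WAVE complex gene Abi1 fell from 215, 218 and 203 to 108, 110 and 114 (log2 fold change -0.94, adjusted p = 1.84e-14), while its fellow subunit Cyfip2 rose from 18.3, 20.7 and 23.2 to 38.3, 35.9 and 39.7 (log2 fold change 0.86, adjusted p = 2.03e-10). Between the dCas9 libraries 0 of these 14 genes differed 2-fold, against 4.88% of all genes higher and 7.22% lower.

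Classical cadherins and catenins, the adhesion system of ES cells, were 6 higher, 3 lower and 2 not called of 11 in Dnmt1-/-, against 35.8% and 35.4% of all genes, with a median of 0.23. Between the dCas9 libraries 8 had at least 100 counts, of which 0 were called higher than in the inactive control and 2 lower, against 4.88% and 7.22% of all genes. These were Cdh2, with 18 counts in dCas9-OGA and 238 in the inactive control, and Cdh3, which encodes P-cadherin, with 621 and 4719. Cdh11 fell from 91.8, 103 and 77.6 to 10.6, 10.6 and 10.5 (log2 fold change -3.04, adjusted p = 1.06e-20) and Cdh2, which encodes N-cadherin, from 49.6, 53.3 and 43.9 to 13.9, 12.7 and 12.6 (log2 fold change -1.86, adjusted p = 5.58e-17). Cdh5, known from endothelium, rose from 1.90, 1.82 and 1.65 to 5.33, 4.73 and 5.31 (log2 fold change 1.30, adjusted p = 6.31e-10), but in the single libraries it stood at 0.368 cpm in Dnmt1-/- against 1.53 in WT. In the replicates Cdh11 and Cdh2 moved in the same direction as the fibroblast markers. In the single libraries Cdh11 stood at only 0.947 cpm in Dnmt1-/- against 1.61 in WT. Cdh2 stood there at 8.26 against 9.44 cpm, a log2 difference of -0.18.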

How the data were processed

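RNA-seq was analysed from 3 WT and 3 Dnmt1-/- replicates and from 4 single libraries. The authors mapped reads to mm10 (HISAT2 2.1.0, and TopHat2 2.0.11 in the notes for the dCas9 libraries) and counted them on Ensembl v87 genes with featureCounts 1.5.0; its strand and overlap settings are not given in the sources used here. For the single libraries the authors deposited whole counts per gene. For the replicates they deposited a signal, in which each library's counts stand divided by 1 factor. Whole reads, to within 0.001 of a whole number, were recovered from 100% of the values. Their header lines name other columns than they hold, so the third column was read by position.

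Replicates were tested on log2(signal + 0.5) with limma 3.58.1 (trend) after edgeR's filterByExpr, with Benjamini-Hochberg adjustment over 17297 genes. edgeR 4.0.16 and DESeq2 1.42.0 on the recovered reads, other pseudocounts, filters, scalings, a replicate block and left-out replicates were alternatives. Single libraries were scaled with TMM and compared without a test, by exact Clopper-Pearson 95% intervals of count ratios and Wilson intervals of shares, for counting error only. Positions, exon bases and start windows came from GENCODE vM21 on GRCm38, the assembly of mm10. Members and lists were chosen with earlier results of these data known. Named were the C-type genes, members called 2-fold different between the dCas9 libraries, and of each list the 3 called genes with the largest change, with Dnmt1, Ctcf, Smchd1, Dnmt3b and Setdb1. Other genes named were chosen after their values were seen. The scripts were tested on simulated data. The software was Python 3.11.15 with SciPy 1.17.1, NumPy 2.4.6 and pandas 2.3.3, matplotlib 3.10.9 for plots, and R 4.3.3.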

Additional observations from a re-analysis of the deposited data

How the results depend on the processing

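Depth limits the single libraries: alpha and beta genes had too few counts for a comparison by gene, and 2 to 4 gamma genes reached 100 counts. The gamma cluster's log2 ratio of dCas9-OGA over its inactive control, 0.89, lay between 0.86 and 1.06 under alternatives chosen after seeing the data: it was 1.06 without Pcdhga11 and Pcdhgb8. Against WT, the ratio of dCas9-OGA was 0.83 without Pcdhgc3 and 0.43 without Pcdhga11 and Pcdhgb8, and that of dCas9-OGA D242A was -0.028 and -0.63. That of Dnmt1-/- lay between -0.88 and -0.65. Calls of 2-fold moved with few genes. With at least 30 counts, 4 of 16 members were higher in dCas9-OGA than in that control in place of 0 of 4, 2 of 11 were lower in dCas9-OGA D242A than in WT in place of 0 of 4, and 2 of 9 were lower in Dnmt1-/- than in WT in place of 1 of 2. With a pseudocount of 2, 1 member was higher in dCas9-OGA than in WT in place of 2, 0 were higher in dCas9-OGA D242A than in WT in place of 1, and 0 were lower in Dnmt1-/- than in WT, as also under DESeq2 size factors and total gene counts. In the replicates, 2 nonclustered protocadherins were higher without the filter, in place of 1. Same-numbered replicates did not deviate together (r between -0.02 and 0.07), and under the replicate block 11 regulators were called higher, 9 lower and 7 nonclustered protocadherins lower; the block changed no count by over 1.5 times. Ctcf was called lower under the block, by edgeR, with TMM and without WT replicate 2. Sums over clusters and shares of leading members in the replicates could not be run, since 1 member had a row.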
